A study of Mus musculus with 3 samples.

Results

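Molecular chaperones are proteins that keep other proteins folded. The 10 genes described here encode inducible and constitutive chaperones and co-chaperones of the heat shock response: Hspa1a, Hspa1b, Hspa8, Hsph1, Dnajb1, Bag3, Hsp90aa1, Hspb1, Hspd1 and Hspe1. They were taken by symbol from the 31053 features of the count matrices, and each symbol matched 1 feature. The group goes by the name of cytosolic heat shock chaperones, which holds for 8 of them. Hspd1 and Hspe1 encode HSP60 and HSP10, the chaperonin of the mitochondrial matrix, and are described apart.

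In a stressed cell, unfolded proteins draw chaperones away from heat shock factor 1, which then binds inverted repeats of the unit nGAAn upstream of heat shock genes and raises their transcription. HSP70 proteins bind exposed hydrophobic stretches of a client and release them in a cycle driven by ATP. J-domain proteins such as DNAJB1 start that cycle, and HSPH1 and BAG3 exchange its nucleotide. HSP90 holds late folding intermediates such as kinases and steroid receptors, and HSPB1 binds unfolded clients without ATP. In skin, keratinocytes are known for constitutive HSPB1. Digesting tissue into single cells is itself known to induce several of these genes.

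Cells came from mouse dorsal skin in 3 droplet libraries, 1 per group. The young control was 2.5 months old, Yap1 fl/fl; Wwtr1 fl/fl, and had received tamoxifen by gavage at 0.11 mg/g on 2 days a week for 4 weeks. The young YAP/TAZ knockout had the same age, floxed alleles and tamoxifen, plus R26-CAG-CreER, an inducible recombinase that a ubiquitous promoter drives in all cell types. The old control came from wild-type, untreated skin at 24 months, so it differed from the young control in age, floxed alleles and tamoxifen together. Wwtr1 encodes TAZ, and YAP and TAZ are the co-activators that the Hippo pathway restrains. No label says how many mice a library pooled. With 1 library per group no difference has a replicate check, and every interval in brackets is a 95% interval for counting error only.

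After filtering, 10793 young control, 8765 knockout and 11192 old control cells remained, with 81147924, 29170202 and 40730112 UMIs (unique molecular identifiers, 1 per captured transcript). The library labelled knockout stood apart in quality: its kept cells had a median mitochondrial share of 10.3% against 5.01% and 7.20%, and 62.4% of its deposited barcodes exceeded the mitochondrial limit against 12.3% and 19.4%. Wwtr1 stood at 126, 11.7 and 113 CPM (counts scaled to 1000000 UMIs per sum) in the young control, knockout and old control, and Yap1 at 77.9, 40.6 and 62.9 CPM. Xist stood at 1689, 0.206 and 1379 CPM and the Y-linked Ddx3y at 0, 116 and 0 CPM, so the knockout library carried male and both controls female transcripts. Sex, library quality and genotype cannot be told apart in the knockout comparison. Between 40 and 49 kept barcodes were shared by each pair of libraries. Clusters were named from fixed markers, with the 10 chaperone genes and other stress genes kept out of the clustering. Clusters that carried markers of several classes stayed unnamed and held 554, 7201 and 4290 of the kept cells, which is 82.2% of the knockout library. Named classes with at least 50 cells in both libraries numbered 9 for the knockout comparison and 10 for the old control. Each is called "-like", and the T, NK or innate lymphoid-like class is written T/NK-like.

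The inducible HSP70 genes Hspa1a and Hspa1b lie side by side in the class III region of the major histocompatibility complex, at chr17:34969190-34972156 and chr17:34956436-34959238 on the minus strand of GRCm38. Their transcripts share 49.1% and 52.0% of all 91-base windows, but 0 of 510 in the last 600 bases, where the 3' reads of this assay fall, so the counts of the pair are separable there. The upstream sequences of the members are shown because they carry the inverted repeats that heat shock factor 1 is known to bind. RefSeq promoters on GRCm38.p6 covered 8 of the 10 genes, all but Hspa8 and Hsp90aa1. The 250 bases before each start were searched for 2 neighbouring units, GAANNTTC or TTCNNGAA, each of which reads the same on both strands. Capitals mark the matches, and every sequence runs 5′ to 3′ on the strand of its gene.
Hspa1a and Hspa1b: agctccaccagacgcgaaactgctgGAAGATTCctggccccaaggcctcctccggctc
Hspb1: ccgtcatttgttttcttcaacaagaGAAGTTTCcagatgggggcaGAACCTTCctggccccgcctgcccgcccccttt
Hspe1: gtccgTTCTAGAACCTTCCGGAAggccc
Hsph1: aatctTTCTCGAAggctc

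The Hspa1a stretch lies at chr17:34972228-34972285 and the identical Hspa1b stretch at chr17:34959310-34959367. The pair's match began 104 bases before each start, and 247 of the 250 upstream bases (98.8%) were identical between the paralogs. In Hspb1 (chr5:135887777-135887854, plus strand) there were 2 matches, 97 and 117 bases before the start. The Hspe1 stretch (chr1:55088054-55088081, plus strand) held 4 units in a row, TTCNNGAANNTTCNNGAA. It is the same DNA as in the alternative Hspd1 window on the other strand, since Hspe1 and Hspd1 are divergent neighbours, and it lies within an annotated Hspd1 exon. The Hsph1 match (chr5:149636357-149636374, minus strand) lies 33 bases before the RefSeq start and within an exon of the GENCODE model. No match was found in the windows of Dnajb1, Bag3 or the first Hspd1 start. In all, 6 of the 8 genes in the table held at least 2 units. Of all 32851 promoter windows of that length, 12.8% held 2 units, 0.466% held 3 (GAANNTTCNNGAA or its complement, each counted also as 2) and 0.0213%, or 7 windows, held 4. These matches are letters in a window and say nothing of binding in these cells.

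In the young control, Hspa1a was highest in dermal papilla or sheath-like and Hspa1b in melanocyte-like cells. Keratinocyte-like cells came next for both genes, and T/NK-like cells were lowest. Hspa1a stood at 345 CPM [326 to 365] in dermal papilla or sheath-like cells and 307 [301 to 313] in keratinocyte-like cells, against 201 [194 to 208] in fibroblast-like and 42.4 [36.1 to 49.6] in T/NK-like cells. Hspa1b stood at 713 CPM [687 to 739] in melanocyte-like and 660.2 [652 to 669] in keratinocyte-like cells, against 162 [156 to 169] in fibroblast-like and 78.4 [69.6 to 87.9] in T/NK-like cells. From top to bottom of the 12 classes the span was 8.12-fold for Hspa1a and 9.10-fold for Hspa1b. The melanocyte-like sum also held 13657 CPM of keratinocyte markers, and an estimated 22.6% of its UMIs was free RNA. A sum weighs cells by their depth: 202 dermal papilla or sheath-like cells held 3571049 UMIs at a median of 3722.5. The 260 melanocyte-like cells held 4120529 at a median of 3565. At the lower end, mast-like, lymphatic endothelial-like and T/NK-like cells did not differ in Hspa1a between neighbours beyond counting error.

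The knockout comparison was read by a rule of size: a mean of at least 20 CPM over the libraries compared, and a ratio that reached 2 in either direction (2 or more, 0.5 or less) with its counting interval clear of 1.5-fold. Over all kept cells 2 of the 10 genes were higher in the knockout by this rule, against 5.6% of 6734 genes tested, and 0 were lower, against 6.06%. Those were Hspa1a, at 234, 491 and 276 CPM in the young control, knockout and old control, and Hsph1, at 33.0, 82.0 and 24.5 CPM. The median log2 ratio was 0.65 over the 10 genes and -0.01 over all genes. Since the cell makeup of the libraries differed, the named classes were compared next: 31 of 90 gene-by-class pairs were higher, against 3.36% of all 55434 pairs, and 1 was lower, against 4.02%. The 10 genes share cells and libraries, so these counts describe this pair of libraries and are not independent.

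The share of members differed between classes. In fibroblast-like cells 6 of the 10 genes were higher, against 5.61% of all genes there, and in macrophage or dendritic-like cells 5, against 5.18%. Schwann-like (background 2.4%), T/NK-like (3.23%), lymphatic endothelial-like (1.56%) and vascular endothelial-like cells (1.59%) each had 4. Dermal papilla or sheath-like (5.13%) and pericyte or smooth muscle-like cells (3.06%) each had 2. In keratinocyte-like cells 0 were higher, against 2.52%. In fibroblast-like cells the median log2 ratio was 1.14 over the 10 genes and 0.18 over all genes tested.

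**Figure D1:**
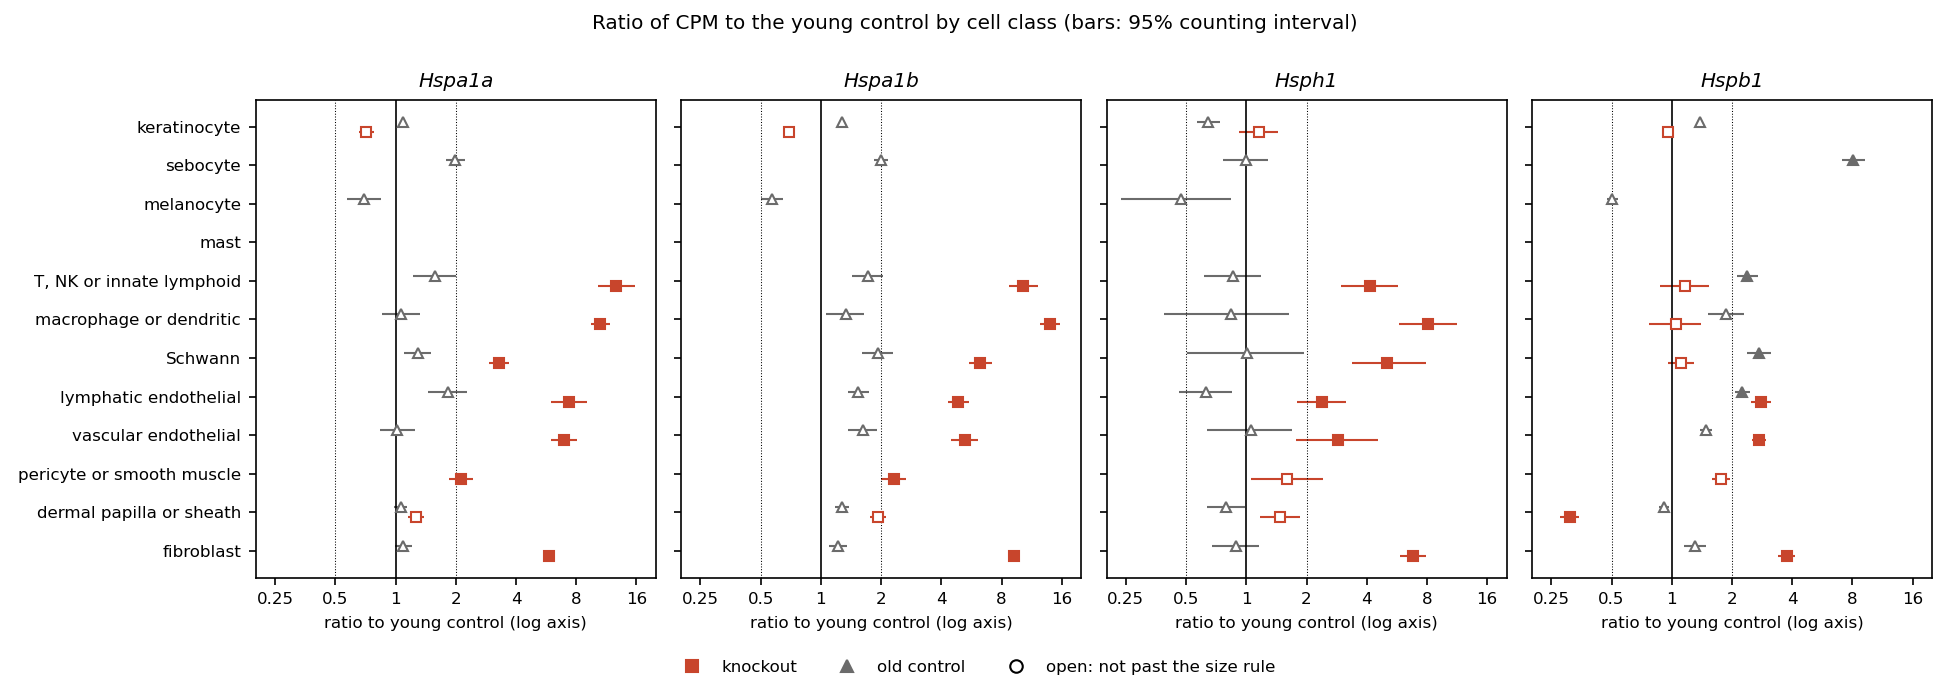
Ratio to the young control (log axis) of Hspa1a, Hspa1b, Hsph1 and Hspb1 in each named class, for the knockout (squares) and the old control (triangles), with 95% counting intervals; filled points are past the size rule, the solid line marks equality and the dotted lines mark 0.5 and 2. The knockout ratios of Hspa1a, Hspa1b and Hsph1 reach 12.7, 14.0 and 8.11, while Hspb1 has filled points on both sides of equality and in both comparisons.

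In the library labelled knockout this order was different: fibroblast-like and macrophage or dendritic-like cells carried the highest levels and keratinocyte-like cells the lowest of the 9 classes. In fibroblast-like cells Hspa1a stood at 201, 1171 and 219.6 CPM and Hspa1b at 162, 1489.7 and 197 CPM, in the order young control, knockout, old control. The knockout value was the high one for both genes, and the controls lay close together. The ratio of knockout to young control was 5.83 [5.48 to 6.2] for Hspa1a and 9.19 [8.66 to 9.76] for Hspa1b.

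**Figure D2:**
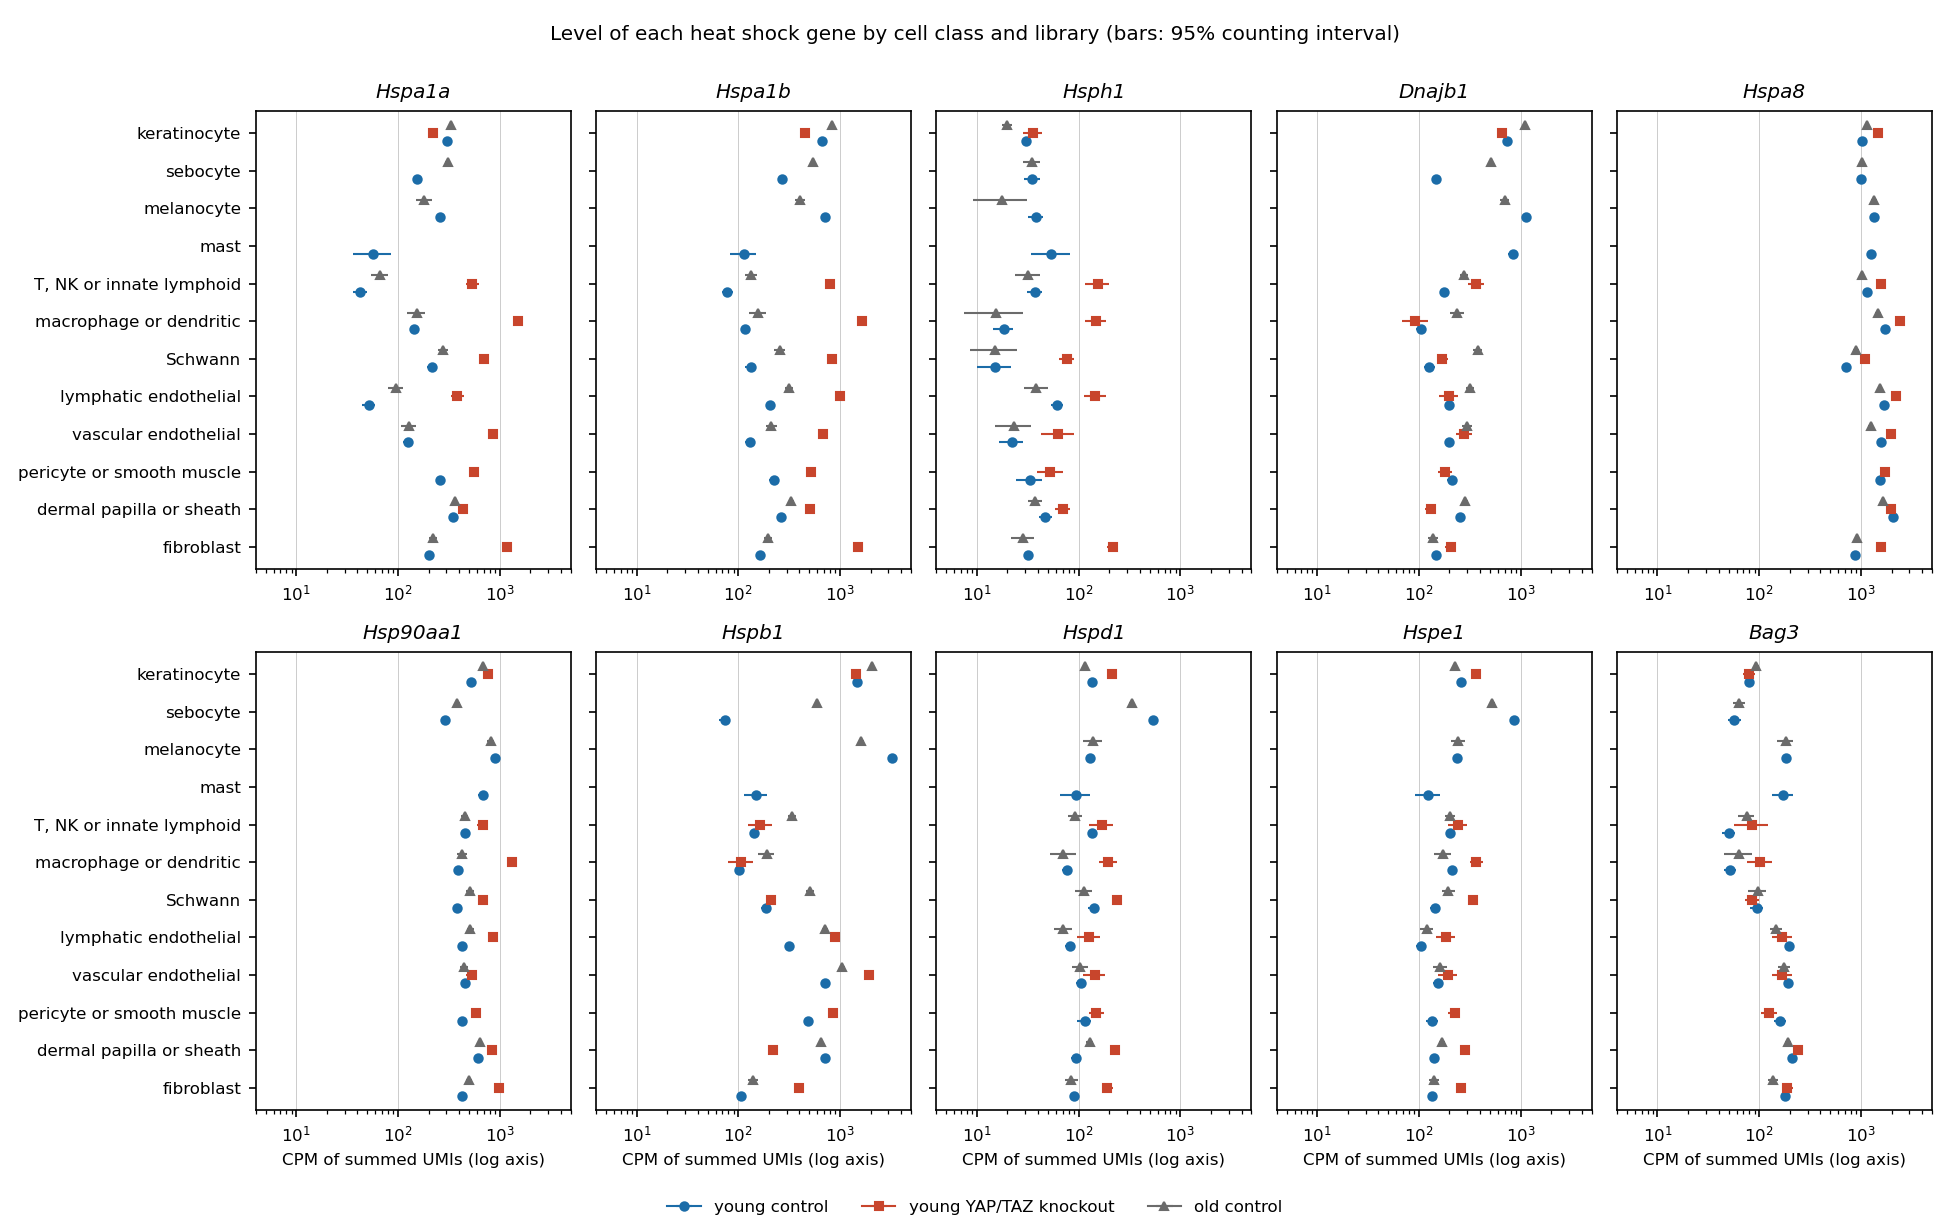
Levels of the 10 genes in CPM (log axis) in each named class with at least 50 cells, by library. Points are the values of the 3 libraries and bars are 95% counting intervals. Hspa1a, Hspa1b and Hsph1 in the knockout library lie above both controls in most classes, and the keratinocyte-like class is the exception for Hspa1a and Hspa1b.

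Macrophage or dendritic-like cells showed the same order, with Hspa1a at 143, 1507 and 153 CPM and Hspa1b at 117, 1637 and 156 CPM in the young control, knockout and old control. The ratios to the young control were 10.5 [9.46 to 11.8] and 14.0 [12.5 to 15.6] in the knockout. Different subsets filled this class: 40 of the 63 knockout cells belonged to cluster 32, led by C1qa and C1qb of resident macrophages, against 187 of 728 in the young control, where cluster 19, led by Il1b and Lyz2, dominated. Within cluster 32 the summed pair stood at 461 CPM in the young control and 3092 in the knockout, a ratio of 6.71 [5.89 to 7.66]. With the young control weighted to the knockout's mix of clusters, the class ratios were 7.78 for Hspa1a and 10.8 for Hspa1b.

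Endothelial, Schwann and lymphoid cells had the same direction. Hspa1a stood at 125, 869.8 and 127 CPM in vascular endothelial-like cells and at 51.9, 383 and 94.7 CPM in lymphatic endothelial-like cells. In Schwann-like cells it stood at 214, 702 and 277 CPM, and in T/NK-like cells at 42.4, 539.5 and 66.6 CPM. Hspa1b stood at 131, 687 and 212 CPM in vascular, 204, 991 and 313 in lymphatic, 132, 829.6 and 255 in Schwann and 78.4, 804 and 134 in T/NK-like cells. In each of these 4 classes the knockout interval lay above both controls. The knockout ratios were 6.98 and 5.24 (vascular), 7.36 and 4.86 (lymphatic), 3.28 and 6.27 (Schwann) and 12.7 and 10.3 (T/NK) for Hspa1a and Hspa1b. The Schwann-like Hspa1a ratio was 1.40 when each library was clustered alone. The T/NK-like ratios rested on few cells, as the counts per cell show. The cluster mix of that class differed too: 38 of 78 knockout cells belonged to cluster 21, led by Trdc and Cd3g, against 177 of 1186 in the young control. The summed pair had a ratio of 10.3 [7.98 to 13.5] within cluster 21 and 10.7 [9.01 to 12.6] within cluster 4.

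Keratinocyte-like cells, the class with the high baseline, did not share this pattern. Hspa1a stood at 307, 219 and 335 CPM and Hspa1b at 660.2, 458 and 839.8 CPM in the young control, knockout and old control. The knockout was the low library for both, at ratios of 0.714 [0.655 to 0.778] and 0.693 [0.653 to 0.735]. These sums weigh cells by their depth: the knockout cells held 2556341 UMIs at a median of 3403, and the young control cells 33532899 at a median of 8190. The intervals do not cover that weighting. The cluster mix differed: 63 of 147 knockout cells belonged to cluster 12, led by Cst6, Sprr1a and Krt79 of the upper epidermis and follicle, against 126 of 2861 in the young control. Within cluster 12 the summed pair stood at 1220 CPM in the young control and 611 CPM in the knockout, a ratio of 0.501 [0.452 to 0.555], and within cluster 15, led by Lhx2 and Ctgf, the ratio was 1.34 [1.24 to 1.45]. With each library clustered alone the Hspa1a ratio was 1.27, so its direction in this class was not stable.

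The remaining classes lay between. Hspa1a stood at 262 CPM in the young control and 556 CPM in the knockout in pericyte or smooth muscle-like cells, a ratio of 2.12 [1.85 to 2.43], and Hspa1b at 224 and 518 CPM, a ratio of 2.31 [2.01 to 2.67]. Hspa1a stayed past the rule in 6 and Hspa1b in 7 of 11 alternative settings. Both missed the size threshold when doublets were kept (1.49 and 1.51), when each library was clustered alone (1.82 and 1.57) and with cells thinned to 1500 UMIs (1.48 and 1.58). An estimated 36.3% of UMIs in these knockout cells was free RNA. Dermal papilla or sheath-like cells showed 345, 436 and 365 CPM for Hspa1a and 262, 505 and 332 CPM for Hspa1b. Their ratios of 1.27 and 1.93 did not reach the threshold.

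**Figure D3:**
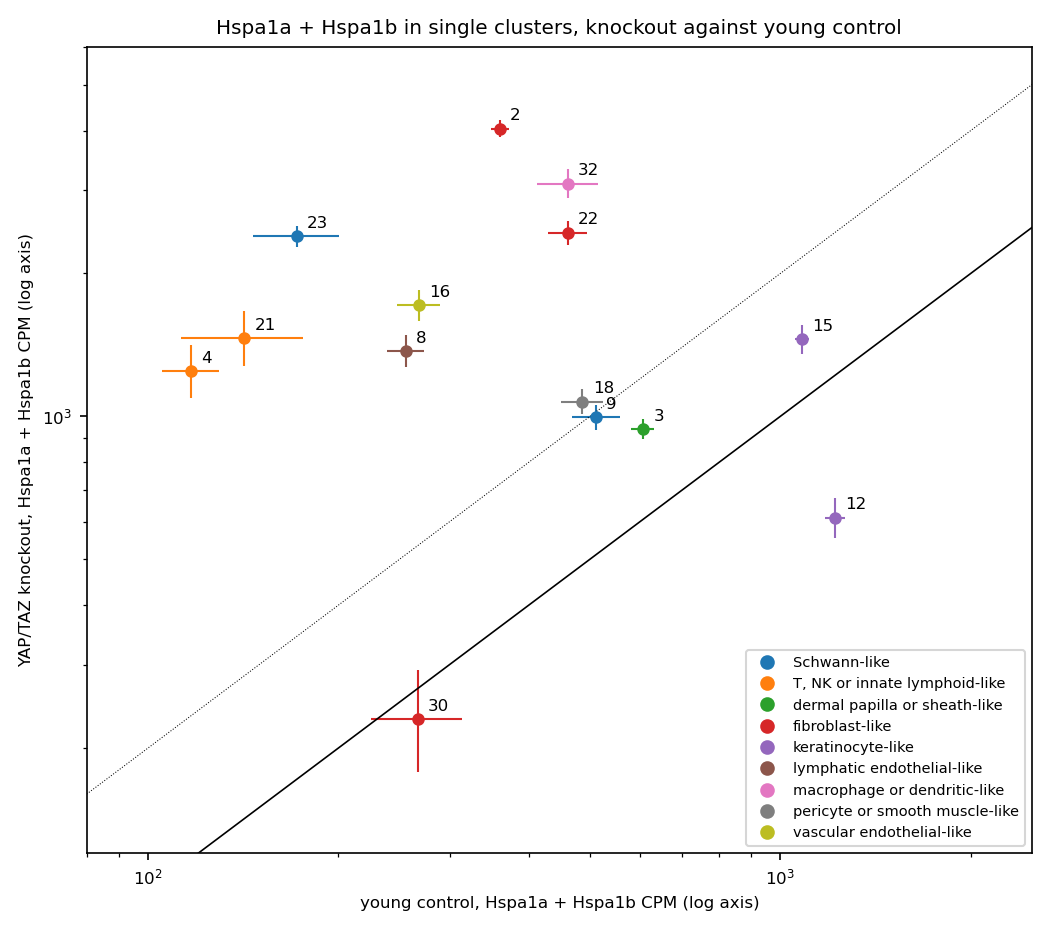
Summed Hspa1a and Hspa1b in CPM (log axis) in each named cluster with at least 30 cells in each of both libraries, knockout (y axis) against young control (x axis), with 95% counting intervals; numbers name clusters, colours name classes, the solid line marks equality and the dotted line a ratio of 2. In 12 of 14 clusters the knockout lies above the young control. Clusters 12 (keratinocyte-like) and 30 (fibroblast-like) are the other two.

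Within the fibroblast-like class the pair differed between clusters. In cluster 2, led by Col1a2, Col1a1 and Dcn, it stood at 360.0 CPM in the young control (1735 cells) and 4039 CPM in the knockout (83 cells), a ratio of 11.2 [10.7 to 11.8]. In cluster 22, led by Coch and Igfbp2, the ratio was 5.29 [4.82 to 5.80]. In cluster 30, led by Apod and Sfrp5, it was 0.863 [0.636 to 1.16], at 267 and 230.3 CPM, and could not be told from equal. Schwann-like cells split in the same way: 13.9 [11.8 to 16.5] in cluster 23, with Mbp among its leading genes, and 1.95 [1.75 to 2.17] in cluster 9, led by Scn7a. The differences between clusters were not tested, since each rests on the same pair of libraries.

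Counts per cell showed how the pair was spread over cells. Each cell was thinned to 1500 UMIs, and shallower cells were left out (68 young control, 6 knockout and 37 old control fibroblast-like cells). A UMI of Hspa1a or Hspa1b was then found in 35.3% (2489 cells, young control), 57.0% (193 cells, knockout) and 37.1% (350 cells, old control) of the class, and in 67.7%, 75.9% and 66.9% before thinning. The median cell held 0, 1 and 0 UMIs, and the cell at the 90th percentile held 2, 13 and 2. No class lacks the pair by definition. The lowest share was that of T/NK-like cells, at 14.1%, 19.2% and 22.5%.

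Cells with at least 10 UMIs of the pair in 1500 were rare in both controls and made up a minority of the knockout cells. Among fibroblast-like cells there were 1 of 2489 in the young control, 34 of 193 in the knockout (17.6% [12.5 to 23.7], exact Clopper-Pearson) and 0 of 350 in the old control, which by a floor of 3 counts allows a share of up to 0.857%. Those 34 cells held 67.6% of the pair's UMIs in the class. Another 15 knockout cells lay near the limit. In macrophage or dendritic-like cells the counts were 1 of 671, 13 of 57 (22.8% [12.7 to 35.8]) and 0 of 102, and the 13 cells held 82.7% of the UMIs. In T/NK-like cells they were 0 of 1100, 6 of 78 and 0 of 365, and the 6 cells held 92.7% of the UMIs, so the high ratios of that class rest on 6 cells. Keratinocyte-like cells had 11 of 2804, 2 of 119 and 8 of 1756.

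**Figure D4:**
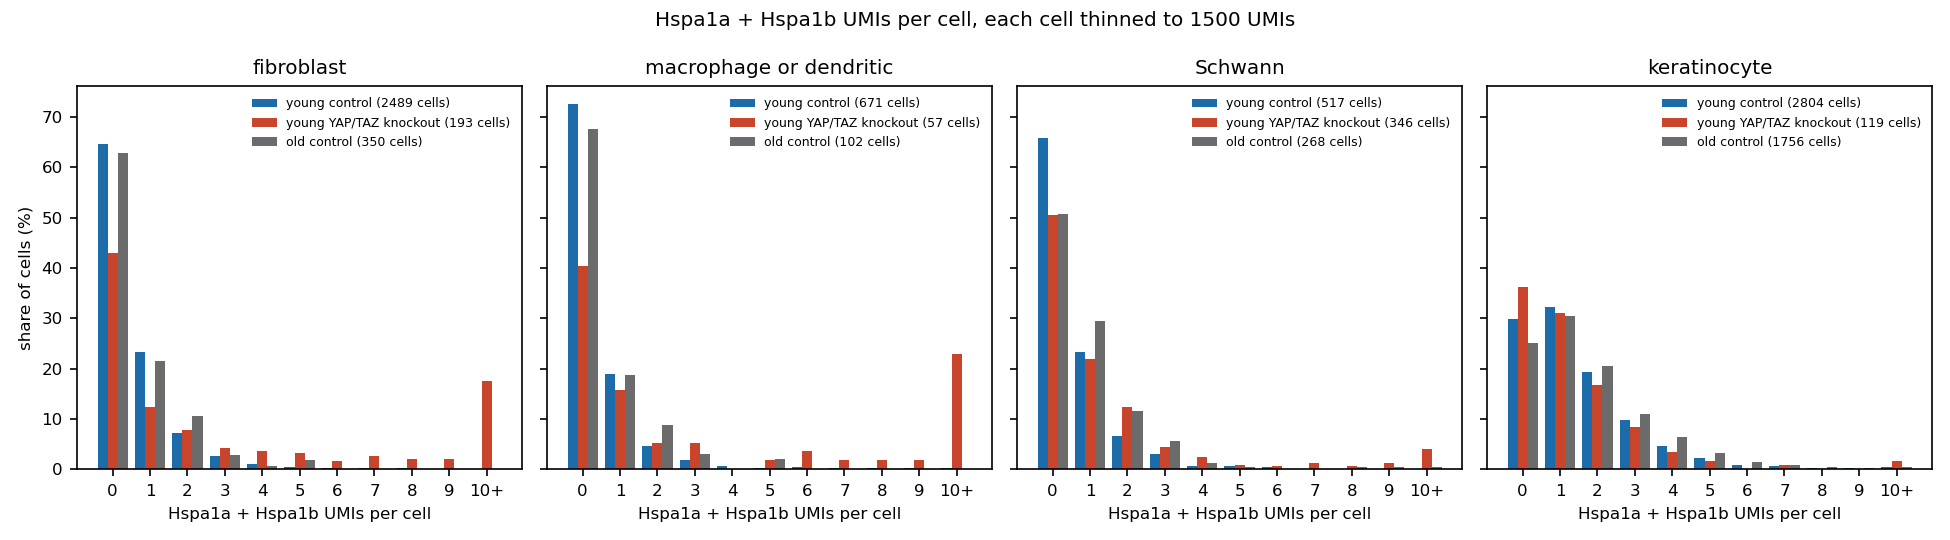
Distribution of Hspa1a and Hspa1b UMIs per cell after thinning to 1500 UMIs, as the share of cells in percent, by library and class. The knockout has a tail of cells with at least 10 UMIs in fibroblast-like and macrophage or dendritic-like cells (34 of 193 and 13 of 57), and the controls have at most 1 such cell there.

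Both copies were high in the same cells. Across the 193 thinned knockout fibroblast-like cells Hspa1a and Hspa1b correlated at Pearson 0.792 (Spearman 0.780), against 0.142 (0.110) over 2489 young control and 0.137 (0.135) over 350 old control cells. The same correlation was 0.856 in 57 knockout macrophage or dendritic-like cells, 0.718 in 90 vascular endothelial-like, 0.587 in 346 Schwann-like and 0.311 in 119 keratinocyte-like cells of the knockout. Of the thinned fibroblast-like cells, 64.7%, 43.0% and 62.9% (young control, knockout, old control) held 0 UMIs of the pair. Counting error lowers a correlation at such counts, so the control values do not show that the copies were uncoupled there. In knockout fibroblast-like cells the summed pair correlated with Hsp90aa1 at 0.413, Hsph1 at 0.376 and Hspa8 at 0.364, and with Bag3 at -0.01 and Hspb1 at -0.12. Other knockout classes differed for Bag3 and Hspb1. The values were 0.414 and 0.287 in macrophage or dendritic-like and 0.128 and 0.444 in vascular endothelial-like cells. In Schwann-like cells they were 0.039 and 0.230, and in keratinocyte-like cells 0.112 and 0.345. Cells of 1 library share its handling and depth, and these values are descriptions. The pair's correlation with the mitochondrial share of the cell had no common sign in the knockout: it was -0.20 in fibroblast-like, -0.14 in vascular endothelial-like and -0.01 in Schwann-like cells, and 0.191 in keratinocyte-like and 0.271 in macrophage or dendritic-like cells.

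Mitochondrial share, which was highest in the knockout library, was therefore used to split the cells at 7.5%. In fibroblast-like cells the summed pair stood at 354, 3213 and 399 CPM (young control, knockout, old control) in cells at or under that share, and at 478, 1702 and 548 CPM above it. The knockout was the high library on both sides, and by more in the cells of low share. In macrophage or dendritic-like cells the pair stood at 251 and 2327 CPM (young control and knockout) at or under the split and 362 and 4934 CPM above it. In Schwann-like cells these values were 352 and 2040 CPM, and 314 and 1185 CPM. Other signs of handling, such as time before capture, were not tested.

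Hsph1 encodes HSP110, which exchanges the nucleotide of HSP70. It followed the inducible pair at a lower level. In fibroblast-like cells it stood at 31.7, 217 and 28.2 CPM and in macrophage or dendritic-like cells at 18.4, 149 and 15.4 CPM in the young control, knockout and old control. The knockout was again the only high library. The ratios were 6.84 [5.89 to 7.93] and 8.11 [5.82 to 11.3], and 6 of 9 classes were past the rule. With thinned cells the T/NK-like (2.32), lymphatic endothelial-like (2.42) and vascular endothelial-like (2.68) ratios were no longer past it. In keratinocyte-like cells it stood at 30.7, 35.6 and 19.9 CPM, and the ratio of 1.16 [0.924 to 1.44] could not be told from 1.

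Hsp90aa1 encodes the inducible HSP90 alpha. It was detected in all classes, from 292 CPM in sebocyte-like to 895 CPM in melanocyte-like cells of the young control. In fibroblast-like cells it stood at 429, 983 and 499.7 CPM, and in macrophage or dendritic-like cells at 393, 1326 and 429 CPM. These were the 2 classes past the rule, at 2.29 [2.16 to 2.43] and 3.37 [3.08 to 3.69]. In the other 7 classes the ratios lay between 1.17 and 2.00, and the interval lay above 1 in all 9. The constitutive HSP70, Hspa8, changed less: it stood at 874, 1592 and 919 CPM in fibroblast-like cells, a ratio of 1.82 [1.74 to 1.91]. Its ratios ran from 0.960 in dermal papilla or sheath-like to 1.82 in fibroblast-like cells, with 0 of 9 classes past the rule.

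The co-chaperones Dnajb1 and Bag3 did not follow Hspa1a in their class ratios. Cell by cell in the knockout library, Dnajb1 correlated with the summed pair at 0.369 in vascular endothelial-like and 0.322 in Schwann-like cells. The values were 0.262 in macrophage or dendritic-like, 0.149 in fibroblast-like and -0.01 in keratinocyte-like cells. DNAJB1 delivers clients to HSP70, and Dnajb1 stood at 147, 206 and 138 CPM in fibroblast-like, 104, 92.5 and 239 CPM in macrophage or dendritic-like and 740.0, 662 and 1099 CPM in keratinocyte-like cells. Its knockout ratios ran from 0.513 [0.445 to 0.591] in dermal papilla or sheath-like cells to 2.08 [1.71 to 2.52] in T/NK-like cells. Only the latter passed the rule, and it fell to 1.53 when doublets were kept. BAG3 links HSP70 to small heat shock proteins and to autophagy. Bag3 stood at 181, 188 and 137 CPM in fibroblast-like cells, at a ratio of 1.04 [0.911 to 1.18]. It passed the rule in 0 of 9 classes, at 0.784 to 2.00.

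Within the 8 classes present in all 3 libraries, the knockout interval lay above both controls in 7 for each of Hspa1a, Hspa1b, Hsph1, Hspa8 and Hsp90aa1. It did so in 6 for Hspd1 and Hspe1, 3 for Hspb1, 2 for Dnajb1 and 0 for Bag3. Keratinocyte-like cells were the missing class for both inducible HSP70 genes.

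Hspb1 encodes HSP27, a small heat shock protein that binds unfolded clients and actin. It had the widest span of the 10 genes in the young control, from 74.1 CPM in sebocyte-like to 1480.1 in keratinocyte-like and 3222 in melanocyte-like cells, or 43.5-fold. By the estimate of free RNA given below, none of the sebocyte-like UMIs of Hspb1 was left after subtraction. The melanocyte-like sum held 13657 CPM of keratinocyte markers, and the part of free RNA in the span was not tested. In vascular endothelial-like cells it stood at 709.9, 1938 and 1053 CPM, in lymphatic endothelial-like at 317, 886 and 715 CPM and in fibroblast-like cells at 106, 398 and 139 CPM. The knockout ratios there were 2.73 [2.52 to 2.96], 2.79 [2.49 to 3.13] and 3.76 [3.40 to 4.15]. With the young control weighted to the knockout's mix of clusters the fibroblast-like ratio was 1.96. In dermal papilla or sheath-like cells the order was opposite, at 709, 219 and 649.6 CPM and a ratio of 0.309 [0.278 to 0.342], the 1 lower pair. It was 0.506 when doublets were kept and 0.624 when each library was clustered alone. Keratinocyte-like cells stood at 1480.1, 1424 and 2058 CPM.

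The mitochondrial chaperonin genes Hspd1 and Hspe1 lie head to head at chr1:55077835-55088243 and chr1:55088132-55091307. They followed each other across the 31 sums of class and library at Pearson 0.896 on log2(CPM + 5), the highest of all pairs of members. In the young control both were highest in sebocyte-like cells, at 543 and 858 CPM, against 141 and 259.9 CPM in the next class of each. Hspd1 stood at 90.3, 192 and 84.6 CPM and Hspe1 at 135, 261 and 141 CPM in fibroblast-like cells. Their knockout ratios there were 2.13 [1.85 to 2.43] and 1.93 [1.72 to 2.16]. Hspd1 passed the rule in 3 of 9 classes and Hspe1 in 2, and the ratio lay above 1 for both in every one of the 9. The fibroblast-like Hspd1 ratio was 1.93 under edgeR's TMM scaling, which ended its call.

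In the old control the members lay closer to the young control. Over all kept cells 0 of the 10 genes were higher, against 0.726% of 6608 genes, and 0 were lower, against 2.48%. Hspa1a stood at 234 and 276 CPM in the young and old controls, Hspa1b at 406 and 543 CPM and Hsph1 at 33.0 and 24.5 CPM. All other members had ratios between 0.946 and 1.53. The median over all genes was -0.11 on the log2 scale and that of the members 0.15. In the named classes 7 of 98 tested pairs were higher, against 2.67%, and 0 were lower, against 2.83%. The 7 pairs belonged to Hspb1 and Dnajb1 alone.

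Those pairs lay in classes where the keratinocyte signal differed too. Hspb1 stood at 74.1 CPM in the young and 597 CPM in the old control in sebocyte-like cells, a ratio of 8.06 [7.08 to 9.20]. In Schwann-like cells it stood at 187 and 510.5 CPM, in T/NK-like at 142 and 338 CPM and in lymphatic endothelial-like at 317 and 715 CPM. Dnajb1 stood at 147 and 515 CPM in sebocyte-like, 127 and 382 CPM in Schwann-like and 104 and 239 CPM in macrophage or dendritic-like cells. The summed CPM of 15 keratinocyte markers moved the same way: 10489 and 15606 in sebocyte-like, 3669 and 9392 in Schwann-like, 3778 and 5722 in T/NK-like, 1964 and 6925 in lymphatic endothelial-like and 2117 and 3426 in macrophage or dendritic-like cells. All 15 were detected in 6 of these 10 sums, and Krt75 was at 0 in the other 4. In knockout sums of the same non-epithelial classes the markers stood lower, between 259 and 806 CPM. The markers also differed in classes where 0 members were past the rule. In the young and old controls they stood at 1794 and 5329 CPM in dermal papilla or sheath-like cells. In vascular endothelial-like cells they stood at 2574 and 5102 CPM. The link between the markers and the called pairs was not tested.

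**Figure D5:**
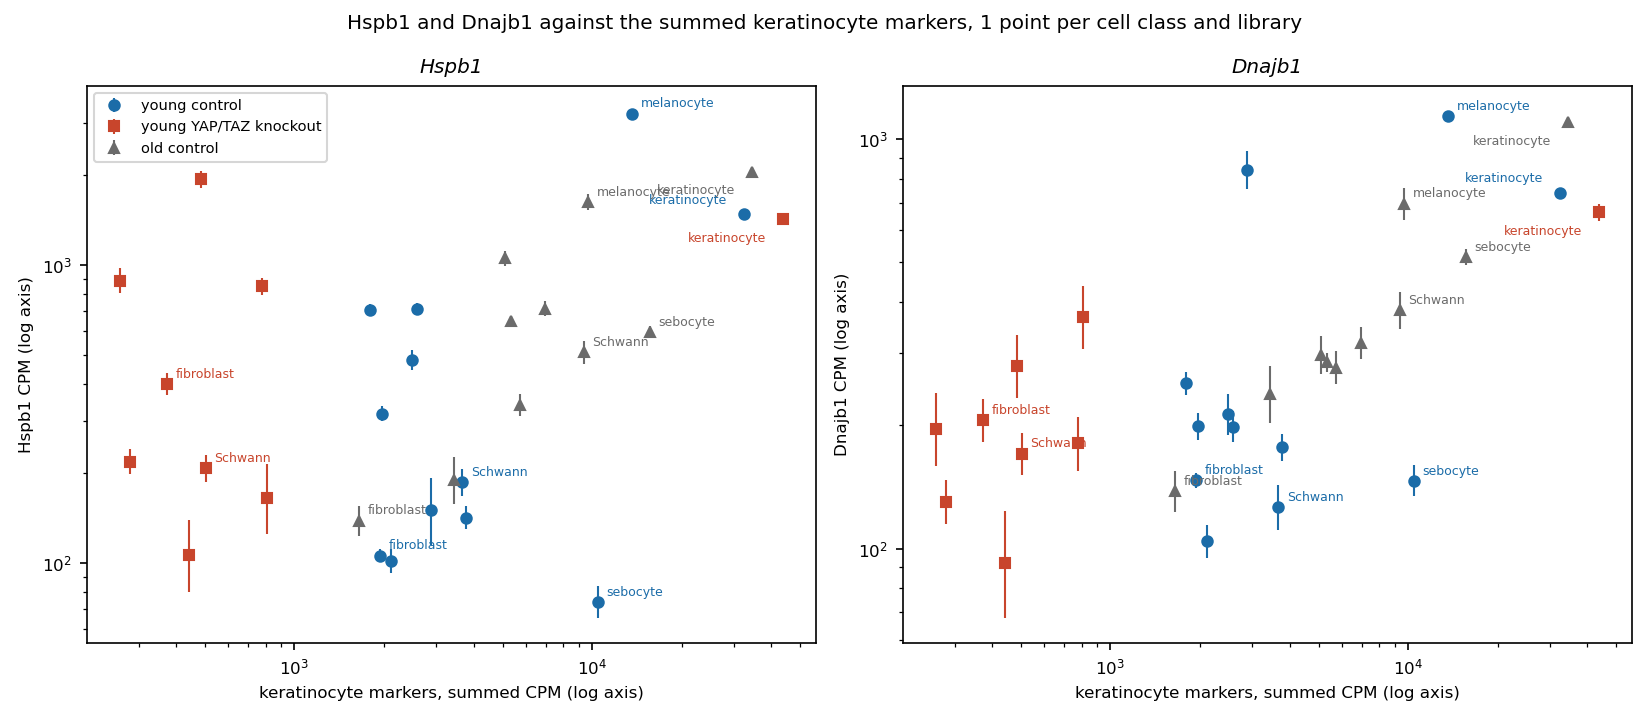
Level of Hspb1 and of Dnajb1 (CPM, log axis) against the summed CPM of 15 keratinocyte markers (log axis) in each class, by library, with 95% counting intervals on the y axis and some classes labelled. Old control sums of Schwann-like, T/NK-like and lymphatic endothelial-like cells lie to the right of and above the young control sums of the same classes.

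Free RNA was estimated from markers of other classes, with the sum of all deposited barcodes of a library, cells included, as its profile. No separate set of empty droplets was used, so the estimate can also hold RNA of doublets. Free RNA by this estimate came to 49.9% of Schwann-like and 53.5% of sebocyte-like UMIs in the old control, against 21.9% and 13.8% in the young control. After it was subtracted, 0 of 361 young and 0 of 503 old control Hspb1 UMIs were left in Schwann-like cells, 0 of 261 and 0 of 2016 in sebocyte-like and 0 of 526 and 0 of 554 in T/NK-like cells. In lymphatic endothelial-like cells 787 of 1093 and 488 of 1056 were left, and the ratio fell to 1.92. The 3 Dnajb1 pairs stayed past the rule after the subtraction: 56 of 244 young and 49 of 376 old control UMIs were left in Schwann-like cells, a ratio of 2.64 [1.76 to 3.94], 299 of 516 and 538 of 1740 in sebocyte-like cells (3.38 [2.93 to 3.91]) and 201 of 443 and 83 of 155 in macrophage or dendritic-like cells (2.82 [2.16 to 3.66]). The macrophage or dendritic-like Dnajb1 pair was past the rule in 7 of 11 settings. Its ratio was 1.47 with doublets kept and 1.63 with cells gated one by one on markers. In fibroblast-like cells the keratinocyte markers stood at 1938, 374 and 1652 CPM in the young control, knockout and old control. The subtraction left Hspa1a and Hspa1b past the rule in each of the 7 knockout classes in which they had been called.

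In melanocyte-like cells the old control was the lower library: Hspb1 stood at 3222 and 1627 CPM, Dnajb1 at 1136 and 695 CPM and Hspa1b at 713 and 407 CPM. The ratios were 0.505 [0.474 to 0.537], 0.612 [0.556 to 0.673] and 0.571 [0.502 to 0.646], none past the rule. The keratinocyte markers in these cells stood at 13657 and 9714 CPM. Free RNA by the same estimate came to 22.6% of their UMIs in the young and 46.7% in the old control. The ratios of this class after the subtraction are not given here, and the part of free RNA in the difference was not tested. In sebocyte-like cells Hspd1 stood at 543 and 333 CPM and Hspe1 at 858 and 529 CPM, at ratios of 0.612 [0.568 to 0.659] and 0.617 [0.582 to 0.655].

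Related chaperones and stress genes placed the members among their pathway. Of the 33 other cytosolic chaperones, co-chaperones and heat shock factors listed, 3 were higher and 1 lower in the knockout over all kept cells. Over all genes tested, 5.6% were higher and 6.06% lower. Both the counts and the shares cover only genes that reached the minimum CPM of the rule. How many of the 33 reached it is not given here, so no share of the list is set beside them. The median log2 ratio of this list was 0.33, against -0.01 over all genes. Those higher were the small heat shock proteins Hspb6 (7.34 CPM in the young control and 36.6 in the knockout, ratio 4.98) and Cryab (79.5 and 324 CPM, ratio 4.08), and Fkbp5, an HSP90 co-chaperone and glucocorticoid target (36.8 and 94.8 CPM, ratio 2.58). Hspb8, the small heat shock partner of BAG3, was lower (120.4 and 54.0 CPM, ratio 0.449). The cell makeup of the libraries differed: unnamed cluster 14, led by Des, Actg2 and Tpm2, held 61 young control and 872 knockout cells. The part of cell makeup in these ratios was not tested. Hsf1 itself stood at 28.8 and 25.3 CPM, a ratio of 0.876. In fibroblast-like cells 4 of 27 were higher, against 5.61% of all genes there, and 0 were lower. Those higher were Dnaja1 (2.17), Stip1 (2.01), Cacybp (2.37) and Fkbp5 (3.1), named after their values were seen. Stip1 passes clients from HSP70 to HSP90.

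Over all kept cells no gene of several other compartments was past the rule, against 5.6% of all genes higher and 6.06% lower. The TRiC chaperonin had 0 of 7 subunits past the rule (median 0.17), other mitochondrial chaperones and proteases 0 of 8 (0.27), proteasome core subunits 0 of 14 (0.26) and oxidative and metal stress genes 0 of 7 (0.29). Endoplasmic reticulum folding genes also had 0 of 14, with a higher median (0.57). In fibroblast-like cells 8 of those 14 were higher, against 5.61% of all genes there, with a median of 1.07 against 0.18 over all genes. Among them were Hspa5, the lumenal HSP70, at 567 and 1211 CPM, and Hyou1, its exchange factor, at 14.6 and 52.1 CPM. Of the immediate-early genes, which dissociation is also known to induce, 0 of 18 were higher over all kept cells, against 5.6% of all genes. Lower were 4, against 6.06%: Fosb (0.490), Jun (0.491), Klf4 (0.490) and Klf6 (0.496). These 4 lay close under the limit of 0.5, in sums whose cell makeup differed, and the median of the list was -0.35. In fibroblast-like cells 0 of 18 were higher, against 5.61% of all genes there. Lower were 2, and the share of all genes lower in this class is not given here. Over the gene-by-class pairs of all classes together it was 4.02%, which is not the matching background. Cell by cell in the knockout library, the summed pair correlated with Jun and Fos at Pearson 0.332 and 0.228 over 193 fibroblast-like cells. The values were 0.702 and 0.555 over 57 macrophage or dendritic-like and 0.189 and 0.117 in Schwann-like cells. They were 0.164 and 0.204 in vascular endothelial-like and -0.04 and 0.074 in keratinocyte-like cells. In macrophage or dendritic-like cells of the controls they were 0.277 and 0.242 (young) and 0.189 and 0.288 (old). The part of dissociation in the levels of the members was not tested.

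By likeness of pattern over the 31 sums of class and library, with the members and the mitochondrial, ribosomal protein, Gm-numbered and Rik genes left out, the 10 of 6792 genes closest to the summed pair were Ddx3y (Pearson 0.714), Hsp90ab1 (0.637), Nars (0.621), Golgb1 (0.615), Naa20 (0.612), Zfc3h1 (0.606), Polr3d (0.596), Commd1 (0.589), Mrpl17 (0.587) and Adh5 (0.578). The sums share libraries, and Ddx3y, which was at 0 in both controls, marks the knockout library itself. Of the other members, Hsp90aa1 (0.673) and Hsph1 (0.625) were closest to the pair and Dnajb1 (0.06) and Bag3 (0.170) farthest. Dnajb1 was instead most like Hspb1, at 0.686.

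Most knockout cells lay in unnamed clusters, and the members were measured there too. Hspa1a stood at 213, 422 and 231 CPM in the unnamed clusters of the young control, knockout and old control, Hspa1b at 304, 567 and 444 CPM and Hsph1 at 39.9, 76.6 and 19.7 CPM. These clusters hold different cells in each library, so no comparison is drawn from them.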

How the data were processed

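The deposited files are unnormalized UMI counts, one matrix of genes by barcodes for each of 3 libraries, 1 per group. Cell Ranger 3.1.0, Seurat 3.1.5 and mm10 are named per the submitters' processing notes, without roles. The selection of barcodes before deposit was not given in the sources used.

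Cells needed 500 genes, 1000 UMIs and a mitochondrial share of no more than 15%. Scrublet's automatic threshold marked 3.11%, 0% and 0.00828% of them in the young control, knockout and old control and had not worked in the last 2, so the 8% with the highest scores were removed from each library, a choice made after that result was seen. Kept cells had a median of 4952, 2082 and 1780.5 UMIs. All libraries were clustered together (scanpy 1.11.5, 2000 variable genes, 30 components, 20 neighbours, leidenalg 0.10.2 at resolution 1), with the members, other chaperones and immediate-early genes left out. Clusters were named when at least 3 fixed markers stood out and no other class came close. The limits for mixed clusters were chosen with the cluster tables in view.

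Class sums of counts in each library are given as CPM with exact Poisson intervals. Ratios have exact intervals from the binomial split, shares of cells exact Clopper-Pearson intervals, and all cover counting error only. No p-value is given, because each group is 1 library. Scripts were tested on simulated data. The 10 members are all named. Of the fixed lists, the 3 highest and 3 lowest ratios and those past the rule could be named, and the 10 genes most like the summed Hspa1a and Hspa1b. Members and lists were chosen with earlier results of these data known. The alternatives were 14 planned and 2 added after seeing the data (nearest class for each cluster, and weighting to the cluster mix). TMM factors came from edgeR 4.0.16. Gene coordinates are GENCODE M21 on GRCm38, and promoters are RefSeq on GRCm38.p6.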

Additional observations from a re-analysis of the deposited data

Results flagged for a closer look

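Some genes differed in opposite directions between classes of the same comparison, with counting intervals that excluded 1 on both sides. Each class is 1 sum per library, so these differences between classes were not tested. In the knockout, Hspa1a stood at 12.7 times the young control in T/NK-like and 0.714 times in keratinocyte-like cells. The first rests on 6 cells with high counts, and the second was 1.27 with each library clustered alone. Hspa1b stood at 14.0 times the young control in macrophage or dendritic-like and 0.693 times in keratinocyte-like cells. Dnajb1 stood at 2.08 times in T/NK-like and 0.513 times in dermal papilla or sheath-like cells, and Hspb1 at 3.76 times in fibroblast-like and 0.309 times in dermal papilla or sheath-like cells. In the old control, Dnajb1 stood at 3.52 times the young control in sebocyte-like and 0.612 times in melanocyte-like cells, and Hspb1 at 8.06 and 0.505 times in these 2 classes. Only the class with the largest and the class with the smallest ratio are given for each gene, so the gaps are the widest among the classes compared.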

How the results depend on the processing

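Only a ratio past the size rule was counted as reversed when it crossed 1. Of 2743 values of the 210 ratios under alternative settings, 2212 stayed within the counting interval of the reported ratio, 530 moved out of it and 1 reversed: Hspb1 in T/NK-like cells of the old control was 0.514 with cells gated one by one on markers. Hspa1a in keratinocyte-like cells of the knockout, not past the rule at 0.714, was 1.27 with each library clustered alone and is counted as moved. Of the 31 higher pairs in the knockout, 31 kept their direction and 19 stayed past the rule in every setting that gave a value. Of the 7 in the old control these were 6 and 3.

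Over all kept cells, the count of members higher in the knockout (2) was 4 with cells thinned to 1500 UMIs and 6 with a looser rule (a ratio of 1.5), under which 1 was lower. In the old control 1 was higher with thinned cells and 1 with the looser rule. Of the pairs in the knockout, 3 of 10 were higher and 2 lower with a mitochondrial limit of 5%, and 11 of 40 were higher and 0 lower with gated cells. Lower pairs numbered 2 with stress genes left in the clustering, 3 of 100 with each cluster given its nearest class and 2 with the looser rule. In the old control, higher pairs numbered 4 of 90 with doublets kept, 0 of 40 with gated cells and 17 with the looser rule. Lower pairs there numbered 1 with thinned cells, 4 with free RNA subtracted and 6 with the looser rule. Fewer classes reached 50 cells under the stricter limit and the gate, and the cause of the other shifts was not tested.

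No paired analysis was possible because each group is 1 library. The 3 libraries cannot separate genotype from sex, handling or depth, and the knockout classes rest on 58 to 418 cells.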
